A study of Mus musculus with 8 samples.

Results

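Chemokines and their receptors were followed in the lungs of naphthalene-injected and control mice. Genes were taken by symbol from the table of counts: every Ccl, Cxcl, Ccr, Cxcr and Ackr gene with a number, the Cx3c genes, Xcl1, Xcr1 and Ccrl2. This gave 63 of the 22244 genes in the table, namely 39 ligands, 19 receptors and 5 atypical receptors. The mice were adult C57BL/6J males, an inbred wild-type strain. There were 4 controls, labelled as having had no treatment, and 4 mice injected with naphthalene, a hydrocarbon made toxic by the metabolism of airway club cells. Total RNA of the right cranial lobe of each mouse gave 1 library. Dose, vehicle and time after injection were not given in the sources used here, so effects of the injection itself cannot be told apart from those of naphthalene.

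Chemokines are small secreted proteins that direct the migration of leukocytes through receptors coupled to inhibitory G proteins. Inflammatory chemokines are induced in injured epithelium, stroma and macrophages and recruit monocytes and neutrophils, whereas homeostatic chemokines place lymphocytes and dendritic cells in resting tissue. Most receptors are carried by leukocytes, and atypical receptors take up chemokines without G protein signalling.

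The libraries held 10743842 to 16792306 counts, and 14192 genes had enough counts to be tested. The surfactant gene Sftpc, which marks alveolar type 2 cells, stood at 6452 ± 778 CPM in controls and 6502 ± 1081 CPM after naphthalene (CPM, counts scaled by TMM-adjusted library size; mean ± SD, n = 4 per group, here and throughout). The summed level of 6 club cell genes was 4921 to 9988 CPM in controls and 1004 to 2716 CPM after naphthalene. Genes of chromosome 1 carried almost no counts in any library. Of 1150 protein-coding genes of that chromosome in the table, 1138 (99.0%) were listed at 0 in all 8 libraries, against 0.399% to 11.5% on the other autosomes. They included Ptprc, Fn1 and Col3a1, which leukocytes, stromal cells and fibroblasts use widely. The ligands Ccl20 and Xcl1, the receptors Cxcr1, Cxcr2 and Cxcr4 and the atypical receptors Ackr1 and Ackr3 lie on chromosome 1, and all 7 were listed at 0 in all 8 libraries. Nothing is said here about their expression.

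**Figure D1:**
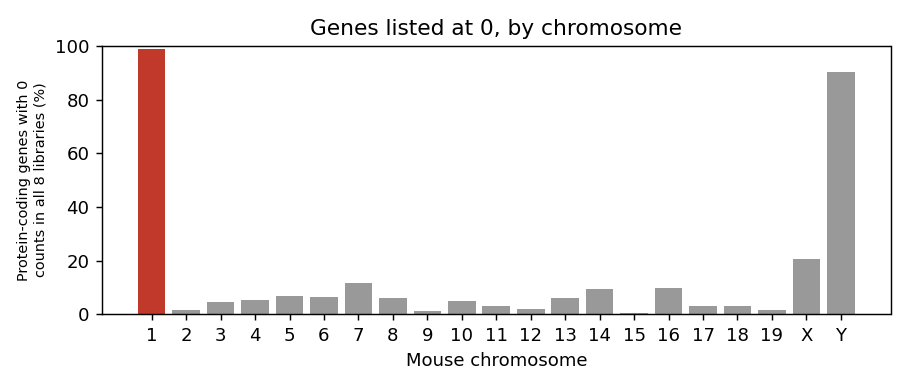
Share of protein-coding genes with 0 counts in all 8 libraries (percent, y axis) on each mouse chromosome (x axis), by the RefSeq table of GRCm38. Chromosome 1 (red) stands at 99.0%, against 0.399% to 11.5% on the other autosomes, 20.6% on X and 90.2% on Y.

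Of the other 56 genes, 40 passed the filter on low counts (25 ligands, 12 receptors and 3 atypical receptors) and 16 did not. A gene could pass that filter through 1 group alone, so these 40 are not a neutral sample of the family. Of the 25 tested ligands 11 rose, 3 fell and 11 did not pass, and of the 12 tested receptors 1 rose and 7 fell (edgeR quasi-likelihood test, adjusted p under 0.05 over all tested genes). Of the 3 tested atypical receptors 1 fell. Over all tested genes 28.7% passed, 14.1% higher and 14.6% lower. The median log2 fold change was 0.61 for tested ligands, -0.95 for tested receptors and -0.25 for tested atypical receptors, beside 0.01 for all tested genes. All treated mice lay above all controls for 10 tested ligands and 0 receptors, and below all controls for 2 ligands and 8 receptors. Such separation was found in 28.6% of all tested genes, 13.9% as higher and 14.7% as lower. The difference between ligands and receptors as classes was not tested.

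**Figure D2:**
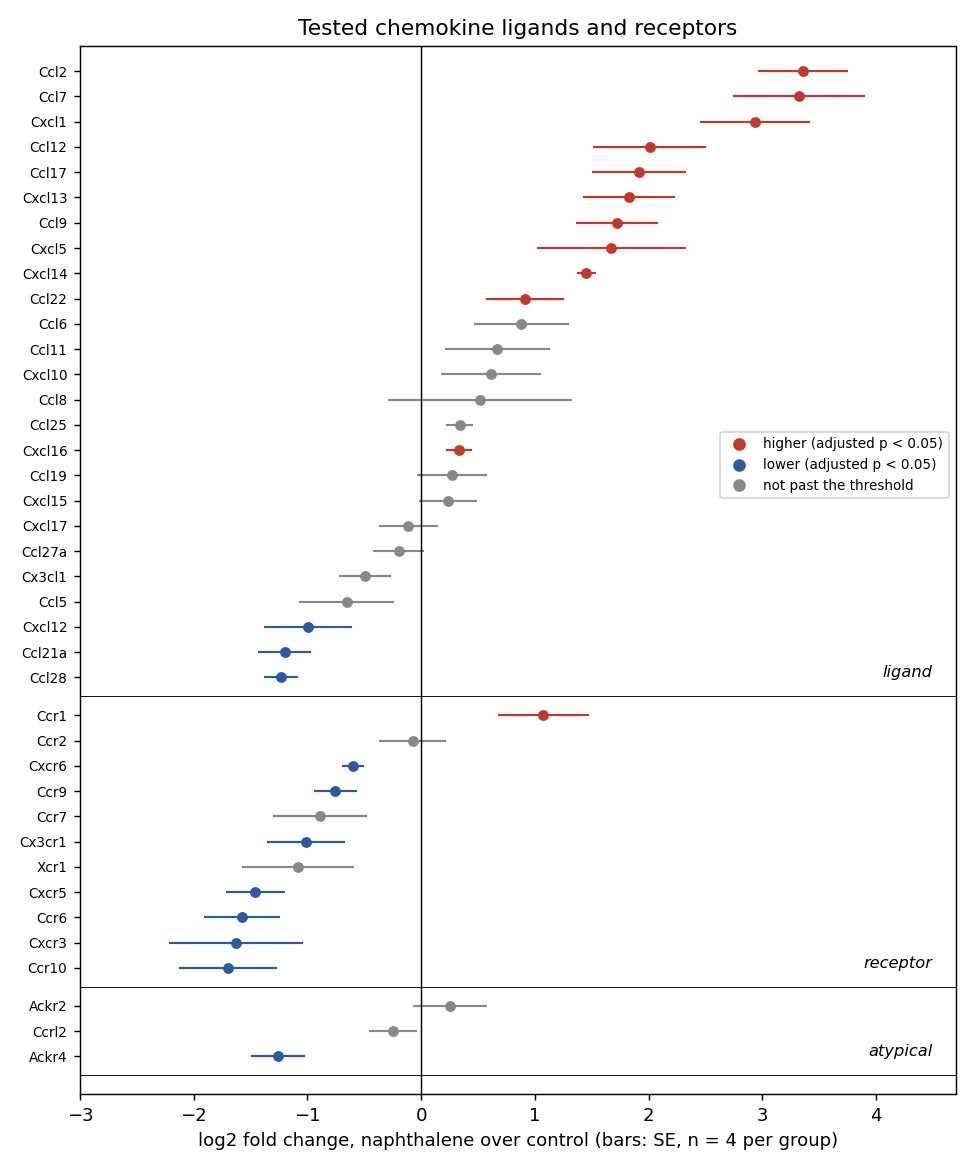
Log2 fold change of naphthalene over control (x axis) for 39 of the 40 tested genes (y axis), grouped as ligands, receptors and atypical receptors. Points are edgeR estimates and bars the SE of the difference in group means (n = 4 per group); 11 ligands and 1 receptor are red (higher), 3 ligands, 7 receptors and 1 atypical receptor are blue (lower), and the rest are grey.

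Of 4 tested ligands of CCR2, the receptor by which inflammatory monocytes are drawn to tissue, 3 rose, beside 14.1% of all tested genes. These 3 passed the filter through their treated counts, so this tally was partly set by that filter. Ccl2, the main monocyte chemoattractant, stood at 0.269, 0.726, 0.527 and 0.644 CPM in controls 1 to 4 and at 4.11, 3.39, 6.68 and 9.16 CPM in naphthalene mice 1 to 4. Its lowest treated value was above every control, and the log2 fold change was 3.36 (SE 0.40, edgeR adjusted p = 0.000206). Ccl7, its neighbour in the chemokine cluster and also a monocyte chemoattractant, read 0.179, 1.02, 0.352 and 0.788 CPM in controls and 3.27, 3.72, 6.94 and 11.2 CPM after naphthalene (log2 fold change 3.32 with an SE of 0.58, edgeR adjusted p = 0.000906). Both genes were lower in naphthalene 1 and 2 than in naphthalene 3 and 4. Ccl12, a close rodent relative of Ccl2, read 0.628, 0.653, 0.176 and 0.859 CPM in controls and 1.19, 1.89, 4.04 and 2.75 CPM after naphthalene, again without overlap (log2 fold change 2.01 with an SE of 0.50, edgeR adjusted p = 0.00851). Ccl8, also of this group, did not pass, at 1.348 ± 0.685 and 2.053 ± 2.099 CPM (edgeR adjusted p = 0.590). A single library, naphthalene 4 with 5.13 CPM, lay above the control range for Ccl8. In counts these genes are low: Ccl2 had 3 to 10 reads per control library and 52 to 100 per treated library.

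CCR2 itself is the receptor for this group, and Ccr2 did not follow its ligands. It read 63.9, 76.1, 122 and 102 CPM in controls and 57.7, 86.0, 86.5 and 116 CPM after naphthalene, with groups that overlapped almost completely (log2 fold change -0.07 with an SE of 0.29, edgeR adjusted p = 0.832). Other monocyte genes went both ways: F13a1 rose, Ms4a4c, Nr4a1 and Treml4 fell, and Ly6c2, a marker of classical monocytes, stood at 8.49 and 8.44 CPM (edgeR adjusted p = 0.949).

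The ligand Ccl9 and its receptor Ccr1 both rose. Ccl9, a CC chemokine of rodent myeloid cells, read 10.9, 15.1, 19.0 and 13.8 CPM in controls and 28.8, 33.1, 62.5 and 70.8 CPM after naphthalene (log2 fold change 1.72 with an SE of 0.36, edgeR adjusted p = 0.00135). All 4 treated mice were above all controls. Ccr1, a receptor of monocytes and neutrophils that binds Ccl9, read 9.86, 12.3, 22.4 and 9.60 CPM in controls and 17.7, 20.8, 37.5 and 38.6 CPM after naphthalene, and rose (log2 fold change 1.08 with an SE of 0.40, edgeR adjusted p = 0.0264). Control 3 exceeded naphthalene 1 and 2. Leaving out any of controls 1, 2 and 4 or naphthalene 3 and 4 ended the Ccr1 call (adjusted p 0.0590 to 0.0802). Ccl6, the other rodent myeloid ligand, stood at 97.7 ± 27.8 and 180 ± 80.6 CPM and did not pass (edgeR adjusted p = 0.0518), but passed without control 3 (0.0452) or naphthalene 1 (0.00441). The sum over 8 neutrophil genes (Il1r2 of chromosome 1 at 0) was 97.5, 71.2, 406 and 101 CPM in controls and 224, 319, 509 and 507 CPM after naphthalene. The groups overlapped, with control 3 above naphthalene 1 and 2. Of the 6 tested neutrophil genes 2 rose, Retnlg and Mmp8, beside 14.1% of all tested genes, while S100a8, S100a9, Csf3r and Mmp9 did not pass. S100a8 and S100a9 made up most of the sum, at means of 47.5 and 72.45 of 169 CPM in controls. Relative to the neutrophil sum Ccr1 overlapped between groups, at 5.5% to 17.3% in controls and 6.5% to 7.9% after naphthalene. The part of neutrophil RNA in the Ccr1, Ccl6 and Ccl9 values was not tested. In RNA of whole tissue, more or fewer cells of a type and more or less RNA per cell cannot be told apart, for these and all genes below.

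Of 3 tested neutrophil attractants of the ELR type, 2 rose, beside 14.1% of all tested genes. Cxcl1 passed the filter through its treated counts, so this tally was partly set by that filter. Cxcl1, the keratinocyte chemoattractant KC, read 0.179, 0.435, 0.264 and 0.0716 CPM in controls and 3.63, 0.978, 1.58 and 1.19 CPM after naphthalene (log2 fold change 2.94 with an SE of 0.48, edgeR adjusted p = 0.00383). Naphthalene 1 was highest, with 61 reads against 13 to 18 in the other treated libraries and 1 to 6 in controls. Cxcl5, an epithelial neutrophil attractant of the lung, read 0.628, 3.85, 0.791 and 0.859 CPM in controls and 4.82, 2.15, 6.77 and 6.59 CPM after naphthalene (log2 fold change 1.67 with an SE of 0.66, edgeR adjusted p = 0.0392). Control 2 exceeded naphthalene 2, and the call ended when any of controls 1, 3 and 4 or naphthalene 3 and 4 was left out (adjusted p 0.0739 to 0.109) and with limma's voom and quality weights (0.165). Without control 2 the Cxcl5 log2 fold change was 2.70 (edgeR adjusted p = 0.00268). Cxcl2 and Cxcl3 were under the filter, with 2, 1, 5 and 3 and with 0, 2, 1 and 5 reads in controls against 19, 2, 10 and 11 and 13, 6, 13 and 10 reads after naphthalene. Fitted without a filter, Cxcl3 passed (edgeR adjusted p = 0.0273) and Cxcl2 did not (0.0831). Cxcl15, the lung-restricted chemokine lungkine, did not pass, at 1824 ± 326 and 2148 ± 726 CPM (edgeR adjusted p = 0.437). It was 14.8% to 17.3% of the summed level of 5 other alveolar type 2 genes in controls and 14.0% to 22.6% after naphthalene.

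Sequence just upstream of the start was read for the genes past the threshold that have an entry in the RefSeq promoter table of GRCm38.p6, in which 48 of the 63 genes matched by symbol. Windows of 250 bases before the start were searched on both strands for an NF-kB-type motif (GGGA, any 4 bases, CC), an AP-1-type motif (TGANTCA), an antioxidant response-type motif (TGACNNNGC) and a STAT-type motif (TTCCNGGAA). No window was searched for Ccl2, Ccl7, Cxcl5 and Cxcl16, which rose, or for Cxcr5 and Ccr10, which fell. The NF-kB-type motif was in 17.6% of all 32851 windows of the table and in those of 4 of 8 genes that rose (Cxcl1, Cxcl13, Ccl22 and Ccr1) and 2 of 9 that fell (Ccr6 and Ccr9). Ccr6 had 2 windows and only the downstream one held the match, so these tallies count genes and the percentages count windows. The AP-1-type motif, in 6.75% of all windows, was found upstream of Ccl9 alone among genes that rose or fell, and the antioxidant response-type motif, in 10.2%, upstream of Cxcl13 alone. The STAT-type motif, in 0.913% of all windows, was found in none of them. Windows of 4 genes are shown, because they hold most of these matches and one of them, Ccr6, belongs to a gene that fell. They run 5′ to 3′ on the strand of the gene, with every match in capitals, and matches that overlap on the 2 strands run together.
Cxcl1 (GRCm38.p6, chr5:90890995-90891244, + strand): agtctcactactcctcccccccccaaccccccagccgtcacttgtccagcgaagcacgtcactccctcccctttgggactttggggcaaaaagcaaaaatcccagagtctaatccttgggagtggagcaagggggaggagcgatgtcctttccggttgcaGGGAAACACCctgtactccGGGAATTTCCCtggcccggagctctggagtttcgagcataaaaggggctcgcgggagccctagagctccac
Cxcl13 (GRCm38.p6, chr5:95956689-95956938, + strand): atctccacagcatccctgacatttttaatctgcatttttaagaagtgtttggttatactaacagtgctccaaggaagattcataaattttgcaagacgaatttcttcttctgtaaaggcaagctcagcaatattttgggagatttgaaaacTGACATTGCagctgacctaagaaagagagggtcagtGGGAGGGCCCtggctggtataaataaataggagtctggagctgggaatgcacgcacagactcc
Ccl9 (GRCm38.p6, chr11:83578637-83578886, - strand): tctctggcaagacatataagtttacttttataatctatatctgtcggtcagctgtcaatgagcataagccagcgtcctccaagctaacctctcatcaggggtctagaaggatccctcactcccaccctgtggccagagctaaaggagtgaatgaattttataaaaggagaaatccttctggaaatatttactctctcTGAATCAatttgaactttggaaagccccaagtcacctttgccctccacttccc
Ccr6, the downstream of 2 starts (GRCm38.p6, chr17:8242276-8242525, + strand): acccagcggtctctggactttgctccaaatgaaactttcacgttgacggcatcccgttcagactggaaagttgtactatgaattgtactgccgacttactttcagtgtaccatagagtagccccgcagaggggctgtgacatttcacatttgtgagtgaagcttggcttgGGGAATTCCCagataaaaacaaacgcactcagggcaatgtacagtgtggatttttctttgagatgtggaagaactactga
The Cxcl1 window holds 3 NF-kB-type matches, of which the last 2 are offset by 1 base on opposite strands. Cxcl13 holds an antioxidant response-type match 99 to 91 bases before the start and an NF-kB-type match 63 to 54 bases before it. The Ccr6 match, a palindrome, lies upstream of a gene that fell. A match is a description of letters and not of binding.

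Ligands of CCR4, a receptor of type 2 helper and regulatory T cells, rose. Ccl17, made chiefly by dendritic cells and epithelium, read 1.70, 2.69, 4.22 and 3.44 CPM in controls and 6.73, 8.15, 17.6 and 13.6 CPM after naphthalene (log2 fold change 1.92 with an SE of 0.41, edgeR adjusted p = 0.00203). Ccl22, a product of dendritic cells and macrophages, read 2.06, 3.85, 3.87 and 4.23 CPM in controls and 10.3, 4.89, 4.66 and 6.50 CPM after naphthalene (log2 fold change 0.91 with an SE of 0.34, edgeR adjusted p = 0.0400). The 2 genes differed in which mice were high, since naphthalene 1 was lowest for Ccl17 and highest for Ccl22. The Ccl22 call ended when any control or naphthalene 1 or 4 was left out (adjusted p 0.0556 to 0.103) and with the replicate block (0.0705), whereas Ccl17 passed in every alternative run. Ccr4 was under the filter with 5 to 11 reads per control and 3 to 11 per treated library. Ligands of CCR3, the eosinophil receptor, did not pass: Ccl11 (eotaxin) stood at 2.22 ± 1.29 and 3.58 ± 1.52 CPM (edgeR adjusted p = 0.236), and Ccl24 and Ccl26 were under the filter. Ccr3 was also under the filter, at 17, 31, 5 and 13 reads in controls and 2, 6, 5 and 5 after naphthalene, and fitted without a filter it was lower (log2 fold change -1.92, edgeR adjusted p = 0.0233). Eosinophil granule genes Prg2 and Epx were too low to test, while the mast cell and basophil genes Cpa3 and Ms4a2 fell.

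Cxcl14, a chemokine expressed constitutively in epithelia and stroma, had the smallest p of the family. It read 45.3, 50.4, 40.7 and 45.6 CPM in controls and 115, 138, 126 and 119 CPM after naphthalene (log2 fold change 1.45 with an SE of 0.08, edgeR adjusted p = 8.4e-06). The spread within each group was small against the distance between them. Cxcl16, a transmembrane ligand of CXCR6 on T and NK cells, rose less, from 45.5 ± 2.92 to 57.5 ± 8.91 CPM (log2 fold change 0.34 with an SE of 0.11, edgeR adjusted p = 0.0479), but not once any control or naphthalene 2 or 3 was left out (adjusted p 0.0522 to 0.123). Cx3cl1, the other transmembrane ligand (fractalkine), stood at 15.61 ± 1.6 and 11.01 ± 3.554 CPM and did not pass (edgeR adjusted p = 0.0872). Without naphthalene 1 Cx3cl1 passed as lower (log2 fold change -0.73, adjusted p = 0.00432). Cxcl17, a mucosal chemokine, stood at 10.9 ± 2.64 and 10.1 ± 2.86 CPM (edgeR adjusted p = 0.736).

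**Figure D3:**
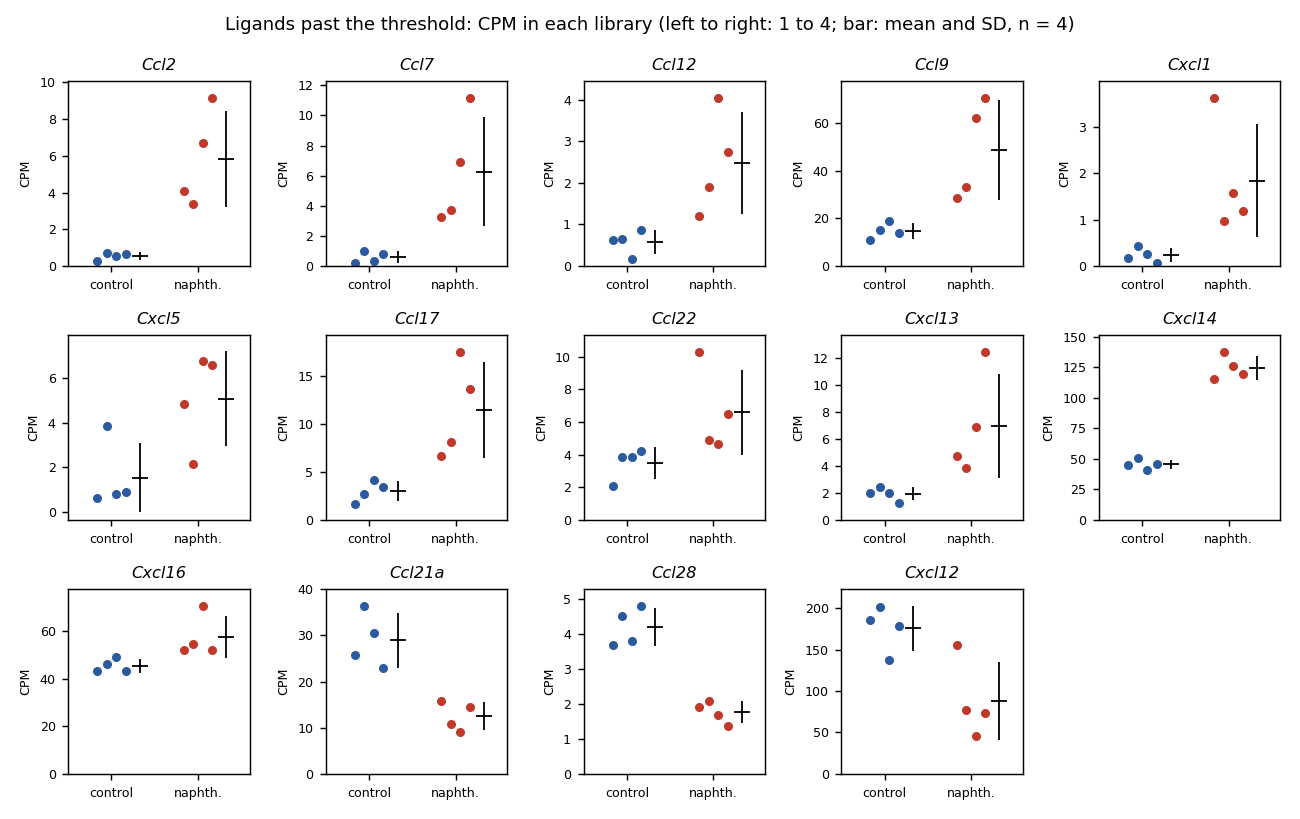
CPM (y axis, linear) of the 14 ligands past the threshold in each library, controls in blue and naphthalene in red, libraries 1 to 4 from left to right, with the group mean and SD (n = 4) beside them. Ccl2 lies at 0.269 to 0.726 CPM in controls and 3.39 to 9.16 CPM after naphthalene, Cxcl14 at 40.7 to 50.4 and 115 to 138 CPM, and the groups of Cxcl5 and Cxcl12 overlap.

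Homeostatic ligands went both ways. Ccl21a, which lymphatic endothelium displays to draw dendritic and T cells through CCR7, read 25.8, 36.4, 30.5 and 22.9 CPM in controls and 15.8, 10.9, 9.05 and 14.5 CPM after naphthalene (log2 fold change -1.20 with an SE of 0.23, edgeR adjusted p = 0.00116). The near-identical copies Ccl21b and Ccl21d had 1 and 0 reads in all, so the split of reads among copies is uncertain. Other lymphatic genes did not fall: of Mmrn1, Flt4 and Reln, Reln rose and the others did not pass, and Prox1 of chromosome 1 was at 0. Ccl21a was 19.6% to 25.3% of the summed level of these lymphatic genes in controls and 5.74% to 9.34% after naphthalene. Ccl19, the second CCR7 ligand, did not pass, at 3.14 ± 1.02 and 3.77 ± 0.839 CPM (edgeR adjusted p = 0.485). Cxcl13, which attracts B cells through CXCR5, rose instead, from 1.97, 2.47, 2.02 and 1.29 CPM in controls to 4.76, 3.85, 6.85 and 12.5 CPM after naphthalene (log2 fold change 1.83 with an SE of 0.41, edgeR adjusted p = 0.00442).

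Cxcl12, the stromal and endothelial ligand of CXCR4, fell. It read 186, 201, 138 and 179 CPM in controls and 156, 77.1, 45.6 and 73.6 CPM after naphthalene (log2 fold change -0.99 with an SE of 0.38, edgeR adjusted p = 0.0269). Naphthalene 1 lay above control 3, and the call ended when any of controls 1, 2 and 4 or naphthalene 2, 3 and 4 was left out (adjusted p 0.0510 to 0.0745). Without naphthalene 1 the log2 fold change of Cxcl12 was -1.42 (edgeR adjusted p = 0.000212). Blood endothelial genes, summed over 6 with Ackr1 of chromosome 1 left out, were also highest in naphthalene 1, at 2749 CPM against 1327 to 1945 CPM in the other treated mice and 2120 to 2396 CPM in controls. As a share of that sum, Cxcl12 was 6.50% to 8.43% in controls and 3.22% to 5.67% after naphthalene, without overlap. Against the sum of 7 fibroblast genes the groups overlapped, at 4.45% to 6.63% and 1.82% to 5.29%.

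Ccl28, an epithelial ligand of CCR10, fell from 4.19 ± 0.548 to 1.76 ± 0.309 CPM (log2 fold change -1.24 with an SE of 0.15, edgeR adjusted p = 0.00159), with no overlap. Ccr10, its receptor on plasma cells and T cells, fell from 1.43 ± 0.533 to 0.402 ± 0.258 CPM (log2 fold change -1.70 with an SE of 0.43, edgeR adjusted p = 0.0157), on 11 to 23 reads per control and 2 to 10 per treated library. Without control 1 the Ccr10 adjusted p was 0.0515. Ccl27a, another CCR10 ligand, did not pass, at 7.72 ± 1.33 and 6.71 ± 1.63 CPM (edgeR adjusted p = 0.4998); its near-identical copy Ccl27b had 1 read in all. Ccl25, the ligand of CCR9, stood at 2.95 ± 0.302 and 3.75 ± 0.477 CPM (edgeR adjusted p = 0.209).

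Several further ligands did not pass or were too low to test. Cxcl10, a CXCR3 ligand induced by interferon, stood at 1.03 ± 0.627 and 1.58 ± 0.175 CPM (edgeR adjusted p = 0.273), and Cxcl9 and Cxcl11 were under the filter with at most 6 reads in a library. Ccl5, made by T and NK cells, stood at 2.37 ± 0.626 and 1.51 ± 0.726 CPM (edgeR adjusted p = 0.192). Ccl3 and Ccl4, the macrophage inflammatory proteins, were under the filter with 3 to 9 and 7 to 15 reads per library in both groups together.

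Of 7 tested lymphocyte receptors 6 fell, alongside marker genes of those cells, while 14.6% of all tested genes fell. Of these 6, Ccr10 passed the filter through its control counts alone, and the Ccr10 and Cxcr3 calls were lost in some alternative runs. Cxcr5, which guides B cells into follicles, read 7.98, 8.13, 7.38 and 8.09 CPM in controls and 4.29, 2.35, 1.76 and 2.93 CPM after naphthalene (log2 fold change -1.46 with an SE of 0.26, edgeR adjusted p = 0.00123). Ccr6, a receptor of B cells and type 17 T cells, read 4.39, 3.63, 6.68 and 4.87 CPM in controls and 2.74, 1.04, 1.23 and 1.37 CPM after naphthalene (log2 fold change -1.58 with an SE of 0.33, edgeR adjusted p = 0.00426). All treated values of both lay below all controls. All 8 B cell marker genes fell too, their sum being 165 to 220 CPM in controls and 54.7 to 93.4 CPM after naphthalene. Relative to that sum the groups overlapped, with Cxcr5 at 3.68% to 4.47% in controls and 2.83% to 4.59% after naphthalene, and Ccr6 at 1.90% to 4.04% and 1.58% to 2.93%.

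Among receptors carried by T cells, Cxcr6, Ccr9 and Cxcr3 fell. Of the 11 tested T cell marker genes 10 fell and all 8 NK cell genes fell, with T cell sums of 82.8 to 95.2 CPM in controls and 42.6 to 54.1 CPM after naphthalene (Cd28 of chromosome 1 at 0). Cxcr6, a receptor of tissue-resident T cells and NK cells, read 13.8, 14.4, 11.2 and 13.8 CPM in controls and 9.29, 7.89, 9.23 and 8.70 CPM after naphthalene (log2 fold change -0.60 with an SE of 0.10, edgeR adjusted p = 0.00621). Relative to the T cell sum Cxcr6 was higher after naphthalene, at 17.2% to 20.2% against 13.5% to 15.1%, without overlap. Ccr9, a gut-homing receptor also found on plasmacytoid dendritic cells, fell from 7.27 ± 1.44 to 4.29 ± 0.704 CPM (log2 fold change -0.76 with an SE of 0.19, edgeR adjusted p = 0.0151). Siglech, a plasmacytoid dendritic cell gene, fell from 4.22 to 0.562 CPM. Cxcr3, the receptor of effector T cells, fell from 1.24 ± 0.306 to 0.374 ± 0.352 CPM (log2 fold change -1.63 with an SE of 0.59, edgeR adjusted p = 0.0432), on 16, 18, 9 and 20 reads against 5, 13, 4 and 0. Leaving out control 1, naphthalene 1 or naphthalene 3 ended the Cxcr3 call (adjusted p 0.0740 to 0.0986). Relative to the T cell sum Ccr9 (5.72% to 10.6% and 7.26% to 10.9%), Cxcr3 (0.955% to 1.53% and 0% to 1.99%) and Ccr7 (12.0% to 14.3% and 7.04% to 19.8%) overlapped between groups. Differences between receptors in these shares were not tested. For 0 reads of Cxcr3 in naphthalene 4, a floor of 3 counts corresponds to 0.275 CPM.

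Ccr7, which brings naive T cells and mature dendritic cells to lymph nodes, read 11.3, 12.99, 11.9 and 13.4 CPM in controls and 10.7, 3, 4.39 and 8.52 CPM after naphthalene. All treated values were below all controls, but naphthalene 1 only narrowly, and the call was not made (log2 fold change -0.89 with an SE of 0.42, edgeR adjusted p = 0.0558). Without naphthalene 1 the log2 fold change was -1.25 (adjusted p = 0.00585), without naphthalene 4 it was -1.02 (0.0468), and DESeq2 also called Ccr7 lower (0.0208). Xcr1, the receptor of cross-presenting dendritic cells, stood at 3.03 ± 0.579 and 1.49 ± 0.915 CPM, also without overlap and without a call (edgeR adjusted p = 0.0675). Without naphthalene 3 Xcr1 was called lower (log2 fold change -1.44, adjusted p = 0.0318). Clec9a, which marks the same dendritic cells, stood at 81.4 and 98.0 CPM (edgeR adjusted p = 0.218). Ccr4 and Ccr8 of regulatory T cells and Ccr1l1 were under the filter with at most 11 reads in a library.

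Cx3cr1, the fractalkine receptor of patrolling monocytes, NK cells and tissue macrophages, fell. It read 13.4, 11.1, 14.6 and 12.1 CPM in controls and 8.87, 8.35, 3.60 and 4.03 CPM after naphthalene, without overlap (log2 fold change -1.01 with an SE of 0.34, edgeR adjusted p = 0.0161). Treml4 and Nr4a1, genes of the same patrolling monocytes, fell as well. Ace, also among the monocyte genes, did not pass, at 685 ± 54.4 and 801 ± 393 CPM (edgeR adjusted p = 0.552). Of 8 interstitial macrophage genes 3 rose, C1qc, Lyve1 and Trem2. Relative to the sum of 7 monocyte genes (Fn1 of chromosome 1 at 0), Cx3cr1 was lower after naphthalene, without overlap. It was 1.3% to 1.7% in controls and 0.555% to 0.906% after naphthalene. Ace made up most of that sum, at a mean of 685 of 815 CPM in controls, and was at 1353 CPM in naphthalene 1. The share therefore sets Cx3cr1 mainly against Ace, and does not show a fall against the other monocyte genes. The part of each cell type in the Cx3cr1 value was not tested.

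Among atypical receptors Ackr4, which removes Ccl19, Ccl21 and Ccl25, fell. It read 13.1, 12.2, 10.5 and 11.9 CPM in controls and 6.67, 5.68, 3.25 and 4.03 CPM after naphthalene (log2 fold change -1.26 with an SE of 0.24, edgeR adjusted p = 0.00133), and passed in every alternative run. Its level fell with that of its substrate Ccl21a, and relative to the lymphatic sum it was 6.74% to 10.2% in controls and 2.06% to 3.88% after naphthalene. Ackr2, a scavenger of inflammatory CC chemokines, read 33.4, 31.7, 23.9 and 29.8 CPM in controls and 50.8, 42.9, 27.9 and 19.7 CPM after naphthalene, so that treated mice lay on both sides of the controls (edgeR adjusted p = 0.465). Ccrl2, which binds chemerin, stood at 29.2 ± 4.55 and 24.5 ± 5.97 CPM (edgeR adjusted p = 0.322).

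**Figure D4:**
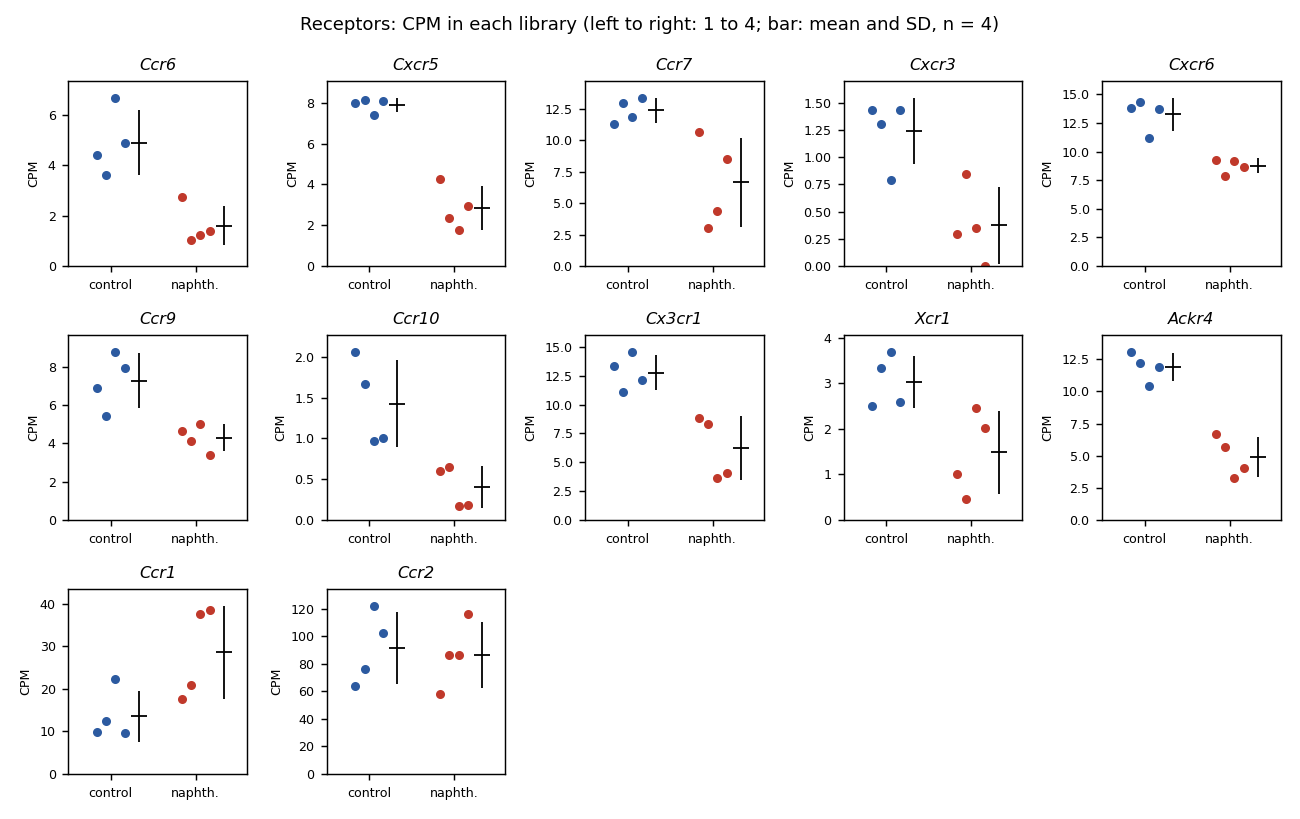
CPM (y axis, linear) of 11 receptors and the atypical receptor Ackr4 in each library, controls in blue and naphthalene in red, libraries 1 to 4 from left to right, with the group mean and SD (n = 4) beside them. Cxcr5 lies at 7.38 to 8.13 CPM in controls and 1.76 to 4.29 CPM after naphthalene, while Ccr2 overlaps between groups and Ccr1 is highest in naphthalene 3 and 4.

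Of 14 pairs of a ligand and a receptor it binds, both partners passed in 4, moving the same way in 2 and opposite ways in 2. Cxcl13 rose by 1.83 on the log2 scale while Cxcr5 had a log2 fold change of -1.46. Cxcl16 rose by 0.34 and Cxcr6 stood at -0.60, and Ccl2, Ccl7 and Ccl12 rose with Ccr2 at -0.07. Moving together, Ccl9 and Ccr1 both rose (1.72 and 1.08), and Ccl28 and Ccr10 both fell (-1.24 and -1.70). Ccl8, the CCR2 ligand that did not pass, was not among the pairs. Pairs were set up from known binding and with earlier results of these data known, and the difference within a pair was not tested.

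**Figure D5:**
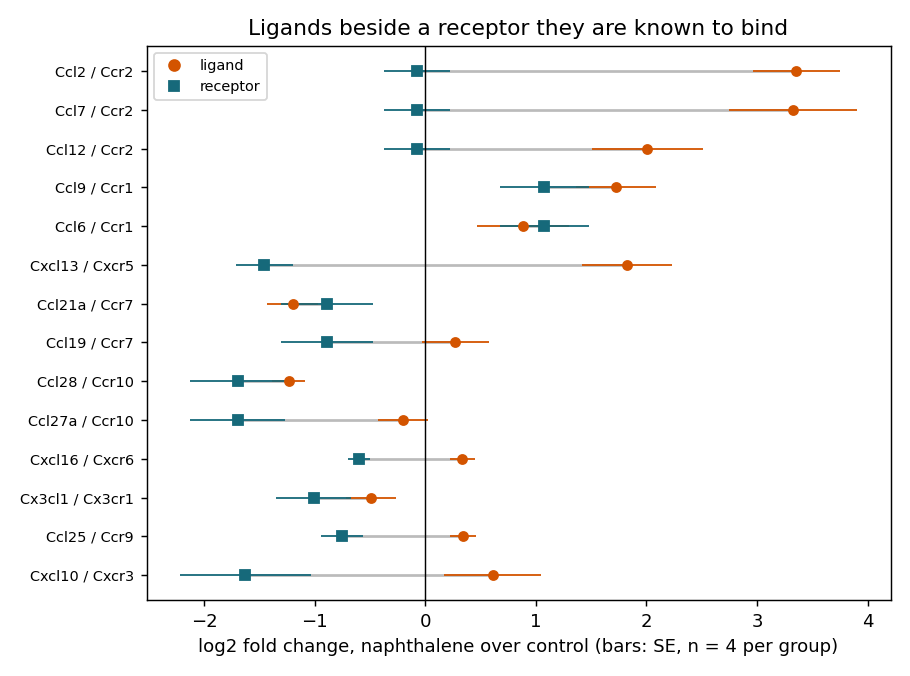
Log2 fold change of naphthalene over control (x axis) for 14 pairs of a ligand (orange circle) and a receptor it binds (teal square), with SE bars (n = 4 per group). The widest gaps are those of Ccl2 and Ccl7 with Ccr2 (3.36 and 3.32 against -0.07) and of Cxcl13 with Cxcr5 (1.83 against -1.46), and Ccl9 lies on the same side as Ccr1.

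Levels of different genes were compared per kilobase of exon, with lengths from GENCODE M21. Cxcl15 led the tested ligands in both groups, at 858 ± 153 CPM per kb in controls and 1010 ± 341 CPM per kb after naphthalene. Ccl6 came next, at 67.9 ± 19.3 and 125 ± 56.0 CPM per kb. In controls Ccl21a (33.2 ± 6.81), Cxcl14 (24.9 ± 2.16) and Cxcl12 (24.6 ± 3.79 CPM per kb) followed, the last pair within their spread of each other. After naphthalene Cxcl14 ranked 3 at 68.2 ± 5.44 CPM per kb, followed by Ccl17 (22.4 ± 9.76) and Cxcl16 (21.3 ± 3.30), which did not differ beyond their spread. Ccl2 and Ccl7 moved from ranks 24 and 22 of 25 to ranks 11 and 10, at 7.18 ± 3.23 and 7.84 ± 4.56 CPM per kb. Both passed the filter through their treated counts, so a low rank in controls and a climb were partly set by that filter. Among the 12 tested receptors Ccr2 led in both groups (13.5 ± 3.87 and 12.8 ± 3.54 CPM per kb), and Ccr1 moved from rank 4 to rank 2 (4.78 ± 2.13 to 10.1 ± 3.86 CPM per kb), where it and Ccr2 were within their spread.

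Of 36 genes that carry or limit the signal of chemokine receptors inside the cell, 32 were tested, 2 rose, 9 fell and 21 did not pass, beside 28.7% of all tested genes past the threshold (14.1% higher, 14.6% lower). They had a median log2 fold change of -0.09 beside 0.01 for all tested genes. The 4 others, Rgs1, Rgs2, Rgs16 and Rgs18, lie on chromosome 1 and were listed at 0. Those with the smallest p were Itgal and Itga4, leukocyte integrin subunits, Grk3, a kinase that desensitises receptors, and Dock2, which drives leukocyte migration. Itgal fell from 57.3 ± 7.89 to 26.3 ± 3.83 CPM, Itga4 from 166 ± 11.9 to 77.2 ± 20.4 CPM, Grk3 from 148 ± 5.97 to 100.4 ± 3.98 CPM and Dock2 from 111 ± 4.15 to 60.6 ± 13.4 CPM. The lymphocyte marker genes fell in the same libraries, and their part in these values was not tested.

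Of 20 NF-kB response genes, many of which are induced with chemokines, 17 were tested and 4 rose, beside 14.1% of all tested genes. Il6 rose by 2.95 on the log2 scale (SE 0.41), Nfkbia, the feedback inhibitor, by 0.57 (SE 0.14), Icam1, an adhesion molecule for leukocytes, by 0.57 (SE 0.10) and Nfkb2 by 0.37 (SE 0.13). The median of the list was 0.12, and Tnf (1.41 ± 0.325 and 1.38 ± 0.201 CPM) and Il1b (28.8 ± 25.7 and 33.3 ± 7.68 CPM) did not pass (edgeR adjusted p = 0.923 and 0.749). For Il1b, control 3 was at 67.3 CPM against 14.7 to 17.9 CPM in the other controls. Treated mice were at 23.7 to 42.4 CPM. Among 6 tested genes of the family with other names, Mif, a cytokine that also binds chemokine receptors, rose from 12.3 ± 0.559 to 19.1 ± 1.87 CPM. Its partner Cd74 fell from 461 ± 48.0 to 260.2 ± 34.5 CPM, and Rarres2, which encodes chemerin, from 72.8 ± 5.17 to 55.7 ± 8.84 CPM. The platelet chemokines Pf4 (7.65 ± 2.47 and 14.5 ± 7.26 CPM) and Ppbp (11.2 ± 4.55 and 7.77 ± 5.98 CPM) did not pass (edgeR adjusted p = 0.0666 and 0.391).

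Of the 16 genes under the filter outside chromosome 1, 7 had fewer than 10 reads over all 8 libraries, among them Ccl1 and Ccl21d with 0. A floor of 3 counts corresponds to 0.179 to 0.275 CPM per library. At these depths a difference in Ccl1, Ccl26, Ccl27b, Ccl21b, Cxcl11 or Ccr1l1 was not detectable.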

How the data were processed

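The authors deposited raw counts of reads per gene symbol, whole numbers without normalisation. Per the submitters' processing notes, the tools were edgeR 4.2.1, featureCounts 2.0.6, HISAT2 2.2.1 and Trim Galore 0.6.7, and the genome build was mm39. The part each tool played, the annotation, the strand setting and the treatment of multi-mapped reads were not given in the sources used here. Libraries were matched to columns by the library names in the labels, with 0 columns left over.

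Counts were analysed in R 4.3.3 with edgeR 4.0.16: filterByExpr (minimum count 10, minimum total 15), TMM scaling and the quasi-likelihood test on a model of group alone, Benjamini-Hochberg adjusted over all tested genes, with a threshold of 0.05. Each SE was taken from the 2 groups' log2 CPM values (prior count 2) as that of their difference in means. The procedure was tested on simulated data. Alternatives used limma 3.58.1, DESeq2 1.42.0 and sva 3.50.0. The 12 within-group pairs of libraries had chi-square values of 5.57 to 48.5 per degree of freedom, above sampling noise. Per the labels' protocols libraries came from separate mice.

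Genes and lists were chosen with earlier results of these data known. Every family gene past the threshold is named. Among tested genes, 1 that did not pass is counted but not reported here. Of each pathway list up to 4 genes of smallest p are named (2 where none passed). Marker genes and the other pathway genes were picked for naming after their values were seen. Chromosomes came from a RefSeq table (20467 of 22244 symbols matched) and lengths from GENCODE M21 (62 of 63 genes), both of GRCm38 and not of mm39.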

Additional observations from a re-analysis of the deposited data

Results flagged for a closer look

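In 4 of 80 groups of 4 libraries (40 tested genes, 2 groups each) 1 library stood apart from the other 3 beyond Dixon's limit, and chance flags about 1 group in 20. Cxcl5 in control 2 was at 3.85 CPM against 0.628 to 0.859 CPM in the other controls. Ccl5 in control 1 was at 1.43 CPM against 2.64 to 2.76 CPM. Cxcl16 in naphthalene 3 was at 70.7 CPM against 52.2 to 54.7 CPM in the other treated mice. Ccl25 in naphthalene 1 was at 3.04 CPM against 3.95 to 4.03 CPM.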

How the results depend on the processing

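In 17 alternatives, 16 of the 23 genes called kept their direction and call wherever they were tested, and 10 of the 17 not called stayed so. None of the 23 changed direction. For the genes named above, exceptions with 1 library left out are given beside their values. Those of the other alternatives are given there only in part. Ackr2 passed as higher with 1 surrogate variable (edgeR adjusted p = 0.0171) and Ccl11 with voom and quality weights (limma adjusted p = 0.0486). Xcr1 passed as lower with DESeq2 (adjusted p = 0.0412), and Cxcl16 lost its call without a filter (edgeR adjusted p = 0.0647). The count of receptors called higher, 1, ranged from 0 to 2 with 1 library left out, and was 2 without control 3 and naphthalene 1 together. The count of atypical receptors called higher, 0 (1 at an unadjusted p under 0.05 among the 3, and that one lower), was 1 with 1 surrogate variable. Other pathway genes called higher, 7, ranged from 4 to 8 with 1 library left out and were 11 with voom and quality weights and 12 with 1 surrogate variable. Over all genes, 2005 were called higher and 2070 lower. With voom and quality weights these were 3186 and 3317, and with 1 surrogate variable 3108 were higher. The cause was not tested. Deviations from the group mean in same-numbered control and naphthalene mice had correlations of 0.287, 0.0332, 0.185 and -0.0934. Only number 1 was matched best by its own number. The labels do not state a pairing, and these correlations cannot settle whether the numbers pair the mice. With the replicate block 10 ligands were called higher, 9 receptors lower, and over all genes 2074 higher and 2289 lower. Cxcl1, Ccr10 and Cxcr3 had no value where a stricter filter or a left-out library removed them. At the depth of these libraries, genes of a few reads, such as Ccl3, Ccl4 and Cxcl9, give no usable comparison.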

Other observations

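The 4 treated mice differed among themselves along several of these genes, a description chosen after the values were seen. Ccl9, Ccl6 and Ccr1 were higher in naphthalene 3 and 4 (Ccl6 217 and 272 CPM) than in naphthalene 1 and 2 (Ccl6 89.6 and 142 CPM). Cx3cr1, Cx3cl1, Ackr2 and Ackr4 were lower in the same mice, with Cx3cl1 at 8.96 and 7.97 CPM against 15.9 and 11.2 CPM. Some marker sums differed between the same mice, and others did not. Alveolar macrophage genes, with Marco of chromosome 1 at 0, summed to 489, 664, 1176 and 1327 CPM in naphthalene 1 to 4, and blood endothelial genes to 2749, 1945, 1416 and 1327 CPM. Neutrophil genes summed to 224, 319, 509 and 507 CPM, and monocyte genes to 1448, 921, 649 and 694.5 CPM. The sums of dendritic cell, lymphatic and alveolar type 2 genes, and of eosinophil, basophil and mast cell genes, also separated naphthalene 1 and 2 from naphthalene 3 and 4. Club cell genes did not, at 1004, 1825, 2716 and 1297 CPM. Interstitial macrophage genes, at 707, 835, 850 and 547 CPM, did not either, nor did the sums of fibroblast, platelet, T cell, B cell and NK cell genes. With 1 library per mouse and no label that separates these mice, no comparison was made.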
